A study of Mus musculus with 12 samples.

Results

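The cells described here carried RNA of the basophil and mast cell program, and they made up 385 of the 32701 single bone marrow cells measured. A cell was chosen when at least 2 of the 4 genes Prss34, Mcpt8, Ms4a2 and Fcer1a had 1 or more UMI (unique molecular identifier, the tag of 1 captured RNA molecule). These 4 genes are called the rule genes below, and because they chose the cells, their levels in the chosen cells are a description and carry no test.

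Single-cell RNA sequencing (10x Genomics, 3' ends of transcripts) was run on c-Kit-positive bone marrow cells of mice, enriched with magnetic beads. Per the labels, mice were 8 to 12 weeks old (the paper's text gives a younger age) when they received repeated injections of pIpC, a synthetic RNA that switches on the Mx1-Cre recombinase. E2-KO mice carried Mx1-Cre and 2 Ezh2 alleles that Cre deletes, G12D mice carried Mx1-Cre and 1 NRas allele that Cre turns into the activated G12D form, and G12D/E2-KO mice carried both. WT mice had no Mx1-Cre and received pIpC as well. Marrow was taken at T1, which is 2 weeks after pIpC, at T2 (2 months) or at T3 (4 months). Each genotype has 1 library at each time. Mx1-Cre is an interferon-responsive driver that acts in many blood and non-blood cells, so recombination can reach stem cells and their descendants, its extent was not measured here, and the presence of Cre itself cannot be told apart from the mutations when a mutant is set against WT. The 3 time points stand in for replicates of a genotype. The labels do not say how many mice gave a library, and p-values measure the spread between these libraries only.

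Basophils and mast cells are granule-bearing cells of allergy and of the defence against parasites. Both arise from marrow progenitors under the factor GATA2, both bind IgE through the receptor FcεRI, and both store histamine and proteases. FcεRI is built from an IgE-binding alpha chain (encoded by Fcer1a), a signal-amplifying beta chain (Ms4a2) and a shared gamma chain (Fcer1g). In the mouse, the proteases of Mcpt8 and Prss34 mark basophils and their precursors, and carboxypeptidase A3 (Cpa3) is a granule enzyme of mast cells that basophil precursors also transcribe.

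The promoters of these marker genes are shown because the cells were chosen or checked by them and the chosen cells were rich in Gata2 RNA. Each runs from 250 bases before to 50 bases after the RefSeq start (build GRCm38.p6, the assembly that mm10 denotes), 5' to 3' on the gene's strand. Capitals mark the usual spellings of a GATA factor motif on either strand, that is GATA with A or T before it and A or G after it.
Prss34 promoter, chr17:25298144-25298443, plus strand: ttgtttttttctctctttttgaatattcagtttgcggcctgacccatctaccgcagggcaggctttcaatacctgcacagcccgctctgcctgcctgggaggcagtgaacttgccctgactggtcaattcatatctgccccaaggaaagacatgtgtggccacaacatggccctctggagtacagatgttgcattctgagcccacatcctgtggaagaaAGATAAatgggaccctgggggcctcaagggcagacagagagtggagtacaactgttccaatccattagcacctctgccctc
Mcpt8 promoter, chr14:56085148-56085447, minus strand: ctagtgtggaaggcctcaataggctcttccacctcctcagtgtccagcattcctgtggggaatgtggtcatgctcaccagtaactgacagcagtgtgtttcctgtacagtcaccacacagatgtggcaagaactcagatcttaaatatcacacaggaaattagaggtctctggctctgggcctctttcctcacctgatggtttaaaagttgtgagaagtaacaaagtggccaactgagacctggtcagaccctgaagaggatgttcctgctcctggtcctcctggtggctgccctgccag
Ms4a2 promoter, chr19:11623670-11623969, minus strand: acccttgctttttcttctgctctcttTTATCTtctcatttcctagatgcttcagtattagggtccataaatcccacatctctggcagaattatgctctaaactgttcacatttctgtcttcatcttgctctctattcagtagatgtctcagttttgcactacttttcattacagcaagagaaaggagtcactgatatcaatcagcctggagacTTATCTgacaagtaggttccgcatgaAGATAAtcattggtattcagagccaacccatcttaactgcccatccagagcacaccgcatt
Fcer1a promoter, chr1:173227180-173227479, minus strand: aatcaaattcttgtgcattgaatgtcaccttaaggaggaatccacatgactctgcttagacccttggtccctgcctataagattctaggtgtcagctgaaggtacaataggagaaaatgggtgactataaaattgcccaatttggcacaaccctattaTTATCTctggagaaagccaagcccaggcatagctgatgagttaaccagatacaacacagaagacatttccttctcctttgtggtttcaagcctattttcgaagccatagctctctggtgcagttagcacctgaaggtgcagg
Cpa3 promoter, chr3:20242132-20242431, minus strand: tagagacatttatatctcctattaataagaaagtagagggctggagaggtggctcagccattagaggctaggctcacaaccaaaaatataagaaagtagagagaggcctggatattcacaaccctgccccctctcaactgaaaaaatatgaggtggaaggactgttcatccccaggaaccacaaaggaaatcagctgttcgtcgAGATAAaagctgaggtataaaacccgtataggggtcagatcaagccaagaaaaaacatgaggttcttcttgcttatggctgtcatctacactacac
The motif lay 31 bases before the start in Prss34, 92 in Fcer1a and 46 in Cpa3, and at 224, 37 and 11 bases before the start in Ms4a2. In Mcpt8 these letters were not in the window. Of all 32851 promoters of this length, 29.8% held at least 1 match and 7.77% held 2 or more, so a match alone does not set these genes apart.

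The gene positions on mm10 are as follows. Prss34 lies on chromosome 17 (25298394 to 25300165, plus strand) and Mcpt8 on chromosome 14 (56082166 to 56085273, minus strand). Ms4a2 lies on chromosome 19 (11615523 to 11623719, minus strand), Fcer1a on chromosome 1 (173221284 to 173227214, minus strand) and Cpa3 on chromosome 3 (20215620 to 20242181, minus strand). All UMIs of a gene were counted together, whatever exon they came from.

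Some facts of the series bear on every value below. Of the 5648 cells in the G12D T1 table, 2896 were also in the G12D/E2-KO T1 table (cosine of the square roots of their counts 0.910 or more), 54 chosen cells among them, and they were counted only in G12D/E2-KO T1. Of these 2896 cells, 1494 had equal counts in both tables. The other 65 of 66 pairs of libraries shared 0 cells by the cosine. Libraries held 12.6 to 23.6 M UMIs. Chosen cells had a median of 5781 UMIs against 5556 in all other cells, and a median mitochondrial share of 4.58% against 4.03%. Chosen cells summed to 68408 UMIs in WT T3 and up to 410377 in G12D/E2-KO T1, so levels in WT rest on few molecules. Xist, the RNA of the inactive X chromosome, was present in WT T3, E2-KO T3 and G12D T3 (2166 to 2424 CPM in chosen cells) and at 2.77 CPM or less in the other 9 libraries, so the G12D/E2-KO T3 library stood apart from the other T3 libraries. The labels used here give no sex, and the source of this difference was not tested.

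The rule genes differed widely in how they marked single cells. Ms4a2 was detected in 334 of the 385 chosen cells, Mcpt8 in 283, Fcer1a in 226 and Prss34 in 182. The receptor chains were detected in many cells with few molecules each, at most 15 UMIs of Ms4a2 and 23 of Fcer1a in 1 cell. The proteases were concentrated in few cells, with up to 335 UMIs of Prss34 and 448 of Mcpt8. All 4 genes were found together in 84 cells, Mcpt8 with Ms4a2 alone in 76, Ms4a2 with Fcer1a alone in 76, and Prss34 with Fcer1a alone in 0 cells. At the threshold itself, the 214 cells with exactly 2 rule genes had a median of 3 rule-gene UMIs, and the 2873 cells with 1 rule gene, just outside, had a median of 1. Cpa3, which the rule did not read, stood at 1259 CPM (a gene's UMIs per 1 M UMIs of the same cells) in cells with 4 rule genes, 772 with 3, 222 with 2, 48.1 with 1 and 7.99 with 0.

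**Figure D1:**
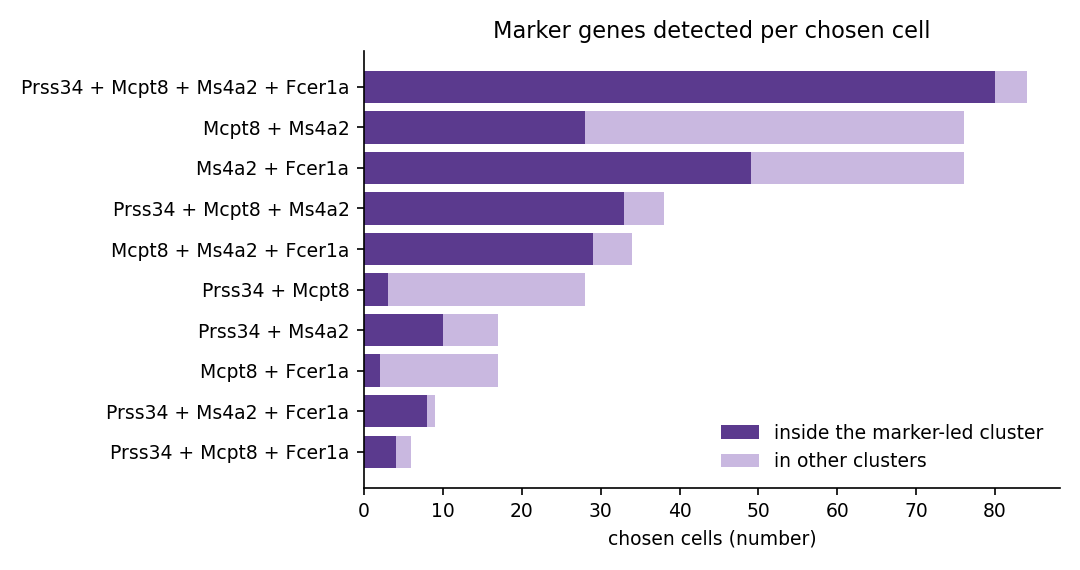
Number of chosen cells (x axis) for each set of rule genes detected (y axis), split into cells inside the cluster led by these genes (dark) and cells in other clusters (light). Of the 84 cells with all 4 genes, 80 lay inside the cluster, against 3 of the 28 cells with Prss34 and Mcpt8 alone.

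To see whether chosen cells also resembled each other in genes the rule did not read, all cells were clustered with the rule genes left out. Of the 385 chosen cells, 246 (63.9%) fell into 1 of 39 clusters, which held 402 cells. The genes that led this cluster, the rule genes aside, were Prg2, Csrp3, Cpa3, Rnase12, Gm11697 and Ifitm1. The other 139 chosen cells were spread over many clusters, and the next most frequent were led by the granule genes Ctsg, Elane and Mpo (19 cells), by Prg2, Ccl9 and Cd34 (17), by the platelet genes Pf4 and Ppbp (16) and by Gem, Cpa3 and Ctla2a (16).

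Chosen cells inside and outside the cluster differed in content. Inside, the median cell held 13 rule-gene UMIs, 223 of 246 cells (90.7%) had Cpa3, and the summed Cpa3 level was 905 CPM. Outside, the median was 2 rule-gene UMIs, 71 of 139 cells had exactly 2, Cpa3 was found in 44 cells (31.7%), and the summed level was 103 CPM. Elane, neutrophil elastase, stood at 516 CPM inside and 4699 CPM outside, and S100a8, a calcium-binding protein of neutrophils, at 2101 and 9073 CPM. Clusters are built from the genes of these same cells, so the differences are a description. For comparison, clusters with an erythroid gene among their leading genes held 4984 cells (median 7277 UMIs). Of these, 7 (0.140%) met the rule and 173 (3.47%) had 1 rule gene. In clusters with a late granulocyte gene among their leading genes it was 6 of 7050 (0.0851%, median 4381 UMIs) and 193 (2.74%). In the next most frequent clusters named above these shares were higher. In the cluster led by Ctsg 1.03% of cells met the rule and 21.5% had 1 rule gene. In the cluster led by Prg2 it was 1.58% and 34.0%, in that led by Pf4 1.49% and 12.2%, and in that led by Gem 1.66% and 21.5%. The source of the rule-gene UMIs in any of these clusters was not tested. Of all 32299 cells outside the cluster, 0.430% met the rule. The cluster also held 156 cells that did not meet the rule, with 504 CPM of Cpa3 and 291 CPM of Gata2.

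The label of basophil and mast cell progenitors was checked against genes outside the rule. Genes that define mature mast cells were largely absent: 11 of 21 mast cell genes listed had 0 UMIs in all 385 cells, among them the tryptases Tpsb2 and Tpsab1 and the chymases Mcpt1, Mcpt2 and Mcpt4. The chymase Cma1 was found in 6 cells (13.2 CPM) and Mitf, a transcription factor that mast cells need, in 6 cells (2.32 CPM). Cpa3 (521 CPM in chosen cells, 12.6 CPM in all others), the stem cell factor receptor Kit (79.0 and 54.5 CPM) and the vesicular amine transporter Slc18a2 (68.6 and 3.83 CPM) accounted for most of that list, and all 10 of its genes with UMIs were at a higher CPM than in other cells. Of 20 basophil genes, 3 (Il13, Ptgdr2 and Gm14548) were at 0, 15 were higher than in other cells and 2 were lower, Lilr4b (0.775 and 5.48 CPM) and Il18rap (10.1 and 13.5 CPM). Il4 had 7 UMIs and Itga2 had 1. The higher ones included the surface receptor Cd200r3 (27.1 CPM in 40 cells, 0.0588 CPM in others), the cytokines Il6 (18.2 and 0.222 CPM) and Csf1 (21.7 and 0.850 CPM), and Cyp11a1 (32.9 and 0.425 CPM), the enzyme that starts steroid synthesis. Since the genes that define mature mast cells were at or near 0 and part of the basophil list was absent, the cells are given no cell type name and are called chosen cells below.

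Among all genes of at least 50 CPM in chosen cells, the ratios to all other cells (5 CPM added to both) were highest for Prss34 (263-fold), Mcpt8 (117), Prg2 (83.2), Ms4a2 (55.2) and Fcer1a (50.6). Then came Csrp3 (32.1-fold), which encodes a LIM-domain protein known from muscle, Cpa3 (29.9), the ribonuclease gene Rnase12 (18.0), Prg3 (17.5), Ifitm1 (12.1) and Gm11697 (12.0). Next were Gata2 (9.76-fold), 4930519L02Rik (9.36), the zinc finger factor Ikzf2 (9.22), Slc18a2 (8.33), Apoe (7.68) and the LIM-only factor Lmo4 (6.55), and the last of the 20 highest ratios were Edem3 (5.53), Ptprs (4.88) and Stx3 (4.86). Csrp3 was detected in 62.6% of chosen and 3.17% of other cells, Gata2 in 65.2% and 9.12%, Lmo4 in 78.2% and 35.8%, and Ikzf2 in 57.7% and 7.86%. All 4 stood higher in chosen cells inside the cluster than outside it, Csrp3 at 806 and 65.6 CPM and Ikzf2 at 314 and 64.0 CPM. Several genes of these ratios also led clusters made mostly of cells not chosen. Csrp3, Apoe and Gata2 were among the leading genes of a cluster of 893 cells, 9 of them chosen. Cpa3 and Ikzf2 were among those of the cluster led by Gem. Prg2, Cpa3 and Ifitm1 were among those of the cluster led by Prg2, Ccl9 and Cd34. Prg2 and Prg3, granule proteins of eosinophils, were held by few cells: Prg2 was found in 21 cells, 14 cells with 10 or more UMIs held 99.7% of its UMIs, and 1 cell held 860. Of those 14 cells, 10 lay inside the cluster.

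Of 16 histamine and granule genes 14 were at a higher and 2 at a lower CPM than in other cells. Hdc, the enzyme that makes histamine, stood at 139 CPM in chosen cells and 28.1 CPM in others. Srgn, the core of granule proteoglycans, had 1644 and 624 CPM, and Cd63, a granule membrane protein and the surface readout of basophil activation, 784 and 243 CPM. In the IgE receptor list all 23 genes had UMIs, 14 at a higher and 9 at a lower CPM than in other cells, with sums of 1067 and 988 CPM. Fcer1g, which many myeloid cells share, was about level (481 and 496 CPM), whereas the adaptors Lat2 (80.2 and 23.8 CPM) and Lat (35.3 and 10.7 CPM) were higher in chosen cells and the inhibitory receptor Pirb (10.1 and 43.8 CPM) and the phosphatase Ptpn6 (55.0 and 66.2 CPM) were lower. Among 20 cytokine receptor genes 13 were higher, 6 were lower and Ptgdr2 was at 0. Those of IL-3 (Il3ra, 50.4 and 12.7 CPM) and IL-33 (Il1rl1, 64.3 and 12.8 CPM), both growth or activation signals of basophils, were higher, and the shared beta chain Csf2rb stood at 63.1 and 23.0 CPM. Csf2ra was about level (23.2 and 23.97 CPM), and Il4ra (4.65 and 6.89 CPM), Il7r (1.94 and 7.87 CPM), Csf3r (17.1 and 20.0 CPM) and Csf1r (5.81 and 10.1 CPM) were lower. Of 29 transcription factor genes 14 were higher, 14 were lower and Hes1 was at 0. Cebpa, a factor of the granulocyte branch, had 107 and 25.0 CPM, and Runx1 124 and 43.7 CPM. Other myeloid factors were lower, with Cebpe at 134 and 296 CPM, Spi1 at 159 and 188 CPM, Irf8 at 47.65 and 76.95 CPM and Gfi1 at 12.4 and 18.2 CPM. S phase and mitosis genes summed to 2380 CPM in chosen cells and 3064 CPM in others, and Mki67 was detected in 42.1% of chosen and 53.4% of other cells.

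RNA of other lineages was present too. The granulocyte list (12 genes, 12 detected) summed to 21790 CPM in chosen cells against 100000 CPM in all others, and to 9209 CPM inside the cluster against 35520 CPM outside. Of its genes 9 were lower in chosen cells, but 3 were higher: Mpo (1720 and 1043 CPM), Prtn3 (2423 and 2276 CPM) and Ms4a3 (658 and 493 CPM). The erythroid list summed to 1966 against 30710 CPM, with 9 of 9 genes lower, and the monocyte list to 987 against 1363 CPM, with 4 lower and 2 higher. The megakaryocyte list summed to 125 against 300 CPM through Pf4 (19.0 and 241 CPM) and Ppbp (1.16 and 14.6 CPM), whereas 4 of its 7 genes were higher in chosen cells, among them Itga2b (71.7 and 12.6 CPM). For 6 B lymphoid genes it was 67.4 against 541 CPM, for 6 macrophage genes 25.2 against 32.3 CPM, for 6 dendritic genes 189 against 386 CPM, and for 5 T and NK genes, carried by Nkg7, 640 against 320 CPM. Cd3e, Cd3g, Siglech and Cd209d were at 0 UMIs in the chosen cells. The MEP list, which holds Gata2 and Apoe, summed to 964 against 942 CPM, and the stem cell list to 124 against 96.0 CPM. Their part in the results was not tested.

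The chosen cells varied widely in their protease content. Summing Prss34 and Mcpt8, 76 cells had no UMI, 200 had 1 to 9, 62 had 10 to 49 and 47 had 50 or more, up to 783. Inside the cluster the respective numbers were 49, 97, 55 and 45. By the rule, a chosen cell without protease UMI holds both Ms4a2 and Fcer1a, so cluster cells with fewer rule genes are not in these ranges. Along these ranges, in the cells inside the cluster, Cpa3 went from 372 to 732, 1062 and 1799 CPM, Cd63 from 571 to 972, 1279 and 2246 CPM, and Fcer1g from 278 to 362, 707 and 1429 CPM. Cd200r3 was nearly confined to the richest cells (3.61, 10.7, 20.7 and 253 CPM). Kit ran the other way, from 126 to 73.4, 51.7 and 22.6 CPM, as did Il1rl1 from 108 to 98.5, 79.3 and 63.1 CPM. Gata2 spanned 311 to 464 CPM. S phase and mitosis genes had no such order (2582, 2134, 1841 and 2421 CPM).

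**Figure D2:**
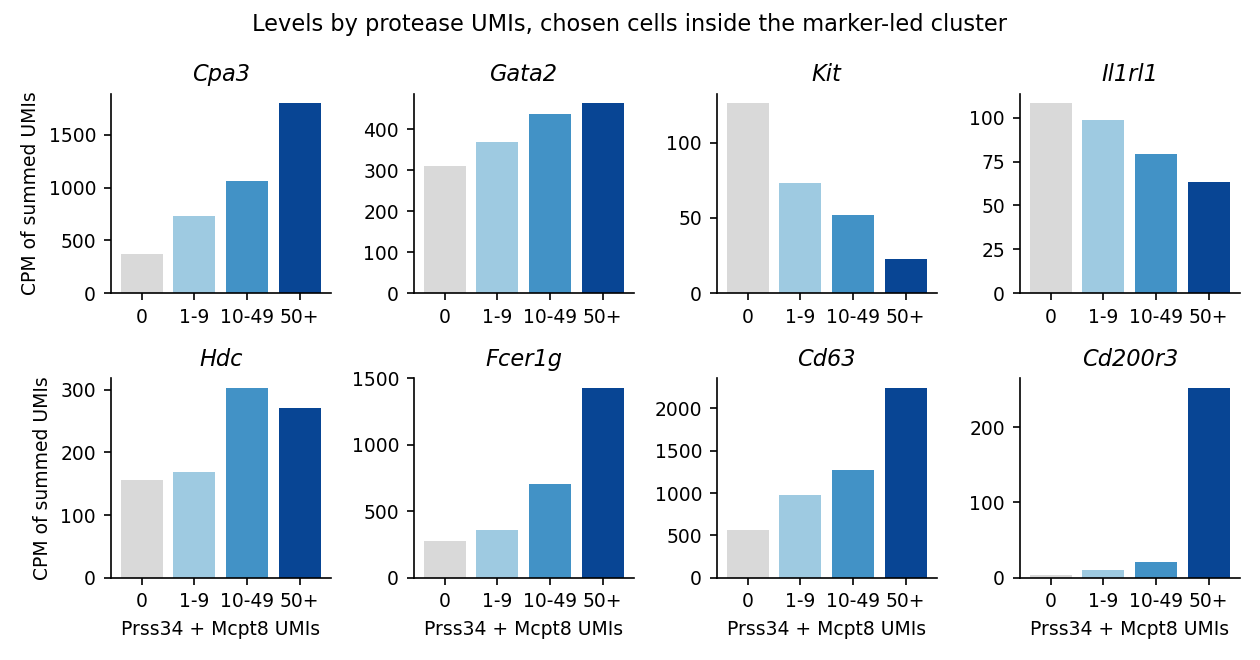
Level in CPM (y axis, from summed UMIs; each panel has its own scale from 0) of 8 genes in chosen cells inside the cluster, by the UMIs of Prss34 plus Mcpt8 in a cell (x axis; 49, 97, 55 and 45 cells from left to right). Cpa3 goes from 372 to 1799 CPM and Kit from 126 to 22.6 CPM.

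Since libraries contributed unequally to these ranges, the cells inside the cluster were also split within each library at 10 protease UMIs, in the 6 libraries with 5 or more cells on either side. Cpa3, Fcer1g, Cd63, Cd200r3, Rnase12 and Cebpa were higher in the protease-rich cells in 6 of 6 libraries. Hdc was higher in 5 of 6, Kit and Gata1 were lower in 5 of 6, and Il1rl1 was lower in 4 of 6. Apoe and Ifitm1 were higher in 3 of 6. Because rule genes made the split, these counts are a description and carry no test. In G12D/E2-KO T1, with 12 and 25 cells, Cpa3 was at 372 and 1193 CPM, and Kit at 165 and 26.5 CPM. The split is a range and not a cell type: 22 of the 246 cells had 8 to 12 protease UMIs. The median depth was 5638 UMIs in cells without protease and 4512 UMIs in those with 50 or more, and the part of depth was not tested.

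Protease content also differed between libraries. Prss34 stood at 4301, 1565 and 453 CPM in the chosen cells of WT at T1, T2 and T3, at 2429, 601 and 1253 in E2-KO, at 2318, 2613 and 977 CPM in G12D, and at 1971, 1956 and 176 CPM in G12D/E2-KO. Mcpt8 stood at 5415, 1703 and 351 CPM in WT, 3199, 908 and 1418 in E2-KO, 3065, 3438 and 1993 CPM in G12D, and 2515, 2506 and 166 CPM in G12D/E2-KO. Both genes were lowest in G12D/E2-KO T3, where 27 of 67 cells (40.3%) had no protease UMI and none reached 50, and next lowest in WT T3, where 3 of 13 had none. Single cells weighed heavily in small libraries: 1 cell held 71.8% of the protease UMIs in WT T1 and 80.8% in WT T2. The receptor chain Ms4a2 varied less, between 321 CPM in G12D T1 and 759 CPM in E2-KO T3, and Fcer1a ran from 35.6 CPM in WT T1 to 541 CPM in WT T3. In the G12D/E2-KO T3 library the other cells carried more RNA of 3 rule genes than in the other libraries, with 29.5 CPM of Mcpt8 (6.23 to 18.1 elsewhere), 11.3 CPM of Ms4a2 (0.915 to 7.12) and 4.59 CPM of Fcer1a (0 to 1.60), but not of Prss34 (0.399 CPM, 0.0467 to 3.36 elsewhere), and 16.9% of its cells had exactly 1 rule gene (4.37% to 11.9% elsewhere).

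**Figure D3:**
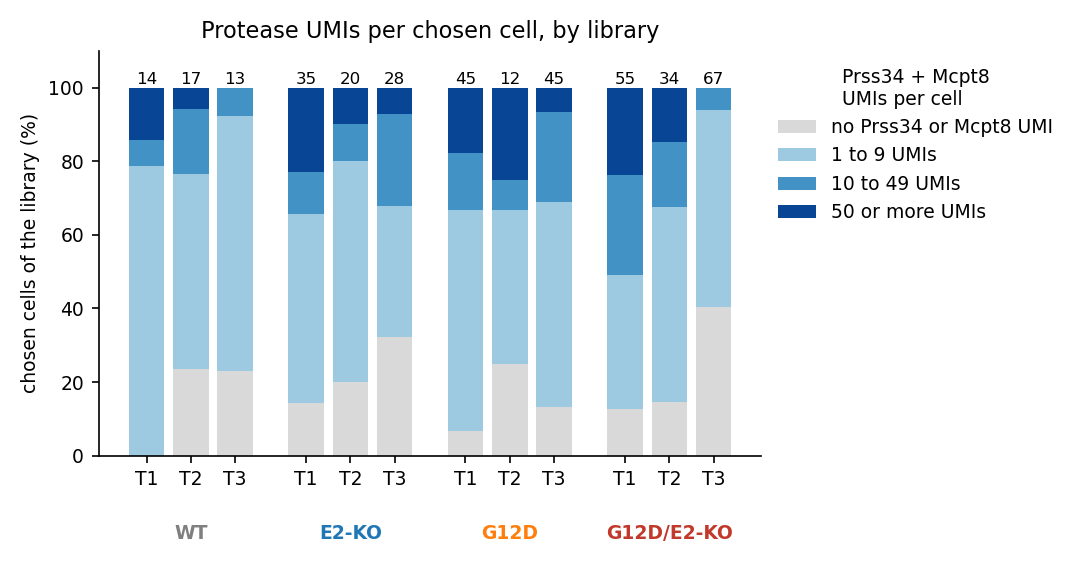
Percent of the chosen cells of each library (y axis) by their UMIs of Prss34 plus Mcpt8, for 4 genotypes at T1 to T3 (x axis); the number of chosen cells stands above each bar. In G12D/E2-KO T3, 27 of 67 cells held no protease UMI and none held 50 or more.

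The first comparison between genotypes asked how frequent these cells were among all cells of a library. WT libraries held 14, 17 and 13 chosen cells at T1, T2 and T3, which is 0.596%, 0.598% and 0.544%. E2-KO libraries held 35, 20 and 28 (1.43%, 0.679% and 1.08%), G12D libraries 45, 12 and 45 (1.64%, 0.498% and 1.76%), and G12D/E2-KO libraries 55, 34 and 67 (1.81%, 0.903% and 2.56%). The means were 0.579 ± 0.0303%, 1.06 ± 0.376%, 1.30 ± 0.697% and 1.76 ± 0.830% (SD, n = 3). All E2-KO and G12D/E2-KO libraries lay above all WT libraries, whereas G12D T2 lay below them. At T2 every mutant had its lowest share. With 3 rule genes required, G12D/E2-KO T3 (0.841%) lay below G12D/E2-KO T1 (0.986%) and G12D T3 (0.862%). Exact binomial 95% intervals, which cover counting error only, were 0.326% to 0.998% in WT T1 and 1.99% to 3.24% in G12D/E2-KO T3. Intervals overlapped in every matched pair of libraries with and without Ezh2 except WT T1 (0.326% to 0.998%) with E2-KO T1 (0.999% to 1.99%). Examples are WT T2 (0.349% to 0.955%) with E2-KO T2 (0.415% to 1.05%), and G12D T1 (1.2% to 2.18%) with G12D/E2-KO T1 (1.36% to 2.35%).

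**Figure D4:**
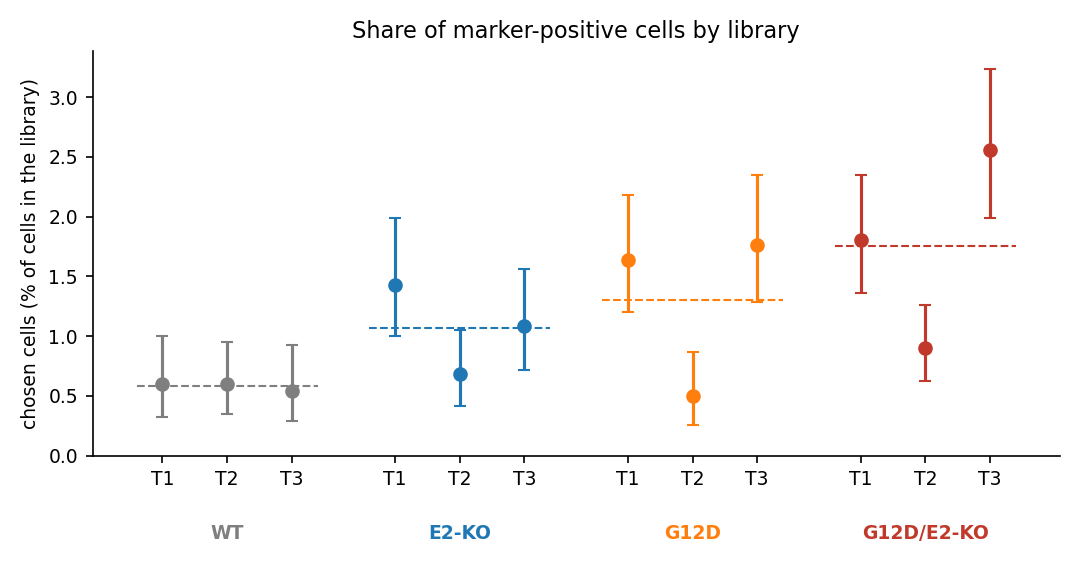
Chosen cells as a percent of all cells in a library (y axis) for 4 genotypes at T1, T2 and T3 (x axis); points are libraries, bars are exact binomial 95% intervals and dashed lines are means over 3 libraries. WT libraries lie between 0.544% and 0.598%, and G12D/E2-KO T3 is highest at 2.56%.

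With Ezh2 deleted the share was higher in 6 of 6 matched pairs of libraries, by a mean of 0.65 on the log2 scale (SD 0.44, 1.56-fold). The two-sided exact sign-flip permutation test gave p = 0.03125, the smallest that 6 pairs allow, and 0.09375 after Benjamini-Hochberg adjustment over 9 tests of this family. The pairs share a time point and the state of the other gene but join mice of different genotypes, and with libraries permuted over groups without the pairing the exact permutation p was 0.1645. With NRas G12D the share was higher in 5 of 6 pairs, by 0.80 (SD 0.75, 1.74-fold; exact permutation p = 0.0625, adjusted 0.141). The interaction of both was -0.29 (exact permutation p = 0.75 with 3 time points, where the smallest possible is 0.25), and its sign turned for all cells of the cluster (0.64). Requiring 3 of the 4 genes gave an Ezh2 effect of 0.69 (exact permutation p = 0.0625), all cells of the cluster 0.60 (p = 0.0625), and the chosen cells outside the cluster 0.37 (p = 0.28125). Thinning every cell to 2000 UMIs gave 0.81 (exact permutation p = 0.03125), with 216 E2-KO T3, 32 G12D T3, 367 G12D/E2-KO T2 and 132 G12D/E2-KO T3 cells too shallow to enter, and the thinned shares averaged 0.314% for WT, 0.637% for E2-KO, 0.745% for G12D and 1.03% for G12D/E2-KO. For G12D the effect was 0.40 for all cells of the cluster (exact permutation p = 0.1875), and 1.11 for the chosen cells outside it (p = 0.25). The share of all cluster cells averaged 0.907% (SD 0.219) for WT, 1.10% (SD 0.225) for E2-KO, 0.980% (SD 0.315) for G12D and 1.81% (SD 0.156) for G12D/E2-KO, with 3 libraries each. The double mutant libraries, at 1.70% to 1.99%, lay above the other 9, at 0.663% to 1.29%. Chosen cells and all others add to 100% of a library, so a loss of another cell type raises this share as well.

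A related question was asked without any limit per cell, by summing the rule genes over all cells of a library, chosen or not. They reached 82.0, 36.3 and 16.9 CPM in WT at T1, T2 and T3, 113, 28.7 and 48.4 in E2-KO, 131, 49.6 and 89.4 CPM in G12D, and 118, 68.7 and 74.4 CPM in G12D/E2-KO. Prss34 and Mcpt8 outweighed the receptor genes in each of these sums, and single cells weighed in them. Of the protease UMIs of the chosen cells, 1 cell held 71.8% in WT T1 and 80.8% in WT T2. In the other libraries 1 cell held 10.9% to 64.8%. The sums also hold RNA of cells not chosen, to an extent that differs between libraries. In G12D/E2-KO T3 those cells had 29.5 CPM of Mcpt8, beside 33.1 CPM over all cells. In WT T3 it was 7.92 beside 9.12 CPM, but in WT T1 9.51 beside 45.6 CPM. These sums therefore do not read the chosen cells alone. In 6 of 6 NRas pairs the G12D library had the higher sum, by 0.91 on the log2 scale (SD 0.83, exact permutation p = 0.03125, adjusted 0.09375). Ezh2 deletion changed them by 0.28 (3 of 6 pairs higher, exact permutation p = 0.4375), and by 0.0364 to 0.408 with 1 library left out. The single genes did not move alike: with Ezh2 deleted, Prss34 and Mcpt8 were each higher in 3 of 6 pairs, but Ms4a2 and Fcer1a were each higher in 5 of 6. With G12D, Prss34, Mcpt8 and Ms4a2 were each higher in 5 of 6 pairs and Fcer1a in 4 of 6. These counts by gene were made after the values were seen and carry no test. Cpa3 over all cells was higher with G12D in 6 of 6 pairs, by 0.83 (SD 0.77, exact permutation p = 0.03125, adjusted 0.09375), and with Ezh2 deleted in 4 of 6, by 0.33 (p = 0.25). Cpa3 was not confined to the chosen cells. In the cells not chosen it ran from 3.68 to 35.4 CPM, beside 9.12 to 45.6 CPM over all cells. The cluster led by Gem, Cpa3 and Ctla2a had 177 CPM, so the Cpa3 sum does not read the chosen cells alone. In such sums, fewer cells of a type and less RNA per cell cannot be told apart. From T1 to T3 the summed rule genes were lower in 4 of 4 genotypes, with a mean log2 difference of -1.18 (exact permutation p = 0.125, the smallest that 4 pairs allow), as were Prss34 and Mcpt8, while Ms4a2 and Fcer1a were each higher at T3 in 3 of 4 genotypes. Ms4a2 went from 8.16 to 11.7 CPM in G12D and from 15.6 to 22.9 CPM in G12D/E2-KO, and Fcer1a from 4.36 to 8.02 CPM and from 4.62 to 13.5 CPM. The share of chosen cells did not move in a common direction (higher in 2 of 4).

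The next comparisons asked which genes differed between genotypes inside the chosen cells. UMIs were summed over the chosen cells of each library, and 2427 genes passed the filter on low counts, the rule genes not counted. The share of chosen cells that lay inside the cluster ran from 52.2% in G12D/E2-KO T3 to 92.9% in E2-KO T3. The sums thus mix cells inside and outside the cluster in parts that differ between libraries. In the edgeR quasi-likelihood test with genotype and time point as factors, 7 genes were called for the Ezh2 effect at an adjusted p under 0.05 (0.288% of genes tested; 1 higher, 6 lower; 209 genes had an unadjusted p under 0.05). For the G12D effect 2 genes were called (0.0824%; 121 unadjusted) and for the interaction 2 (0.0824%; 77 unadjusted). Against WT, 2 genes were called in E2-KO (0.0824%), 0 in G12D (0%; 110 unadjusted; DESeq2 called 1) and 6 in G12D/E2-KO (0.247%). The interaction calls were Xist and Tpm3-rs7.

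The targeted genes came first. Ezh2, the histone methyltransferase of Polycomb repressive complex 2 (chromosome 6, 47530139 to 47595341, minus strand), was at 62.3, 123 and 29.2 CPM in the chosen cells of WT at T1, T2 and T3, and at 83.0, 91.7 and 83.2 CPM in G12D. It was at 14.4, 6.68 and 16.5 in E2-KO and at 31.7, 11.8 and 19.8 CPM in G12D/E2-KO. The groups overlapped only between WT T3 and G12D/E2-KO T1, and the Ezh2 effect came to -2.22 on the log2 scale (SE 0.40, adjusted p = 0.00707 by edgeR). The call was lost without WT T2 (-1.89, adjusted p = 0.114) or without G12D T3 (-2.10, 0.0555), and since the counted 3' ends need not lie in the deleted exons, the RNA level is no measure of how many alleles were deleted. Nras (chromosome 3, 103058285 to 103067914, plus strand) had 41.2 to 120 CPM over all 12 libraries, with a G12D effect of 0.12 (SE 0.25, adjusted p = 0.9999), and the mutated base itself is not read by such counts.

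Ccl9, a chemokine of the CC family (chromosome 11, 83572919 to 83578636, minus strand), was lower wherever Ezh2 was deleted. It stood at 169, 322 and 424 CPM in WT and at 255, 241 and 291 CPM in G12D, but at 46.8, 134 and 107 in E2-KO and at 68.2, 65.0 and 119 CPM in G12D/E2-KO. Every library with Ezh2 intact lay above every library without it, and the Ezh2 effect was -1.68 on the log2 scale (SE 0.21, edgeR adjusted p = 0.000109). Ccl9 passed under all 21 alternatives, at -2.05 (adjusted p = 0.000128) in the chosen cells inside the cluster alone. It is the only called member of the basophil list, of which 3 genes were tested.

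Arf5, a small GTPase of Golgi traffic (chromosome 6, 28423560 to 28426602, plus strand), showed the same separation. It was at 330, 407 and 395 CPM in WT and 296, 287 and 295 CPM in G12D, against 137, 214 and 148 in E2-KO and 115, 166 and 129 CPM in G12D/E2-KO. The Ezh2 effect was -1.18 (SE 0.16, edgeR adjusted p = 0.000355), and it too passed under all 21 alternatives.

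Bex4, an X-linked gene (chromosome X, 136138996 to 136140443, plus strand), was the gene called higher with Ezh2 deleted in the edgeR fit. It had 8.91, 0 and 14.6 CPM in WT and 11.1, 0 and 0 CPM in G12D, against 115, 140 and 49.5 in E2-KO and 31.7, 82.8 and 42.0 CPM in G12D/E2-KO, again without overlap. The fitted log2 change was 3.46 (SE 0.59, edgeR adjusted p = 0.00489) and rests on 109 UMIs in 60 cells. Its call was lost without E2-KO T1 (3.35, adjusted p = 0.0581). It was kept under 17 of the 18 alternatives that gave a value for Bex4, whereas Arf5 had a value under 21. In the sums over all cells of the cluster Bex4 was not tested.

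Rbm4b, which encodes an RNA-binding protein of splicing (chromosome 19, 4756497 to 4767065, plus strand), had 169, 99.7 and 117 CPM in WT and 122, 126 and 139 CPM in G12D, against 54.0, 33.4 and 24.7 in E2-KO and 99.9, 41.4 and 66.7 CPM in G12D/E2-KO. The groups overlapped only between WT T2 and G12D/E2-KO T1, and the change was -1.28 (SE 0.23, edgeR adjusted p = 0.00707). It was lost without WT T1 (-1.21, adjusted p = 0.117), without E2-KO T1 (-1.35, 0.0581) and without G12D T3 (-1.17, 0.0555).

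**Figure D5:**
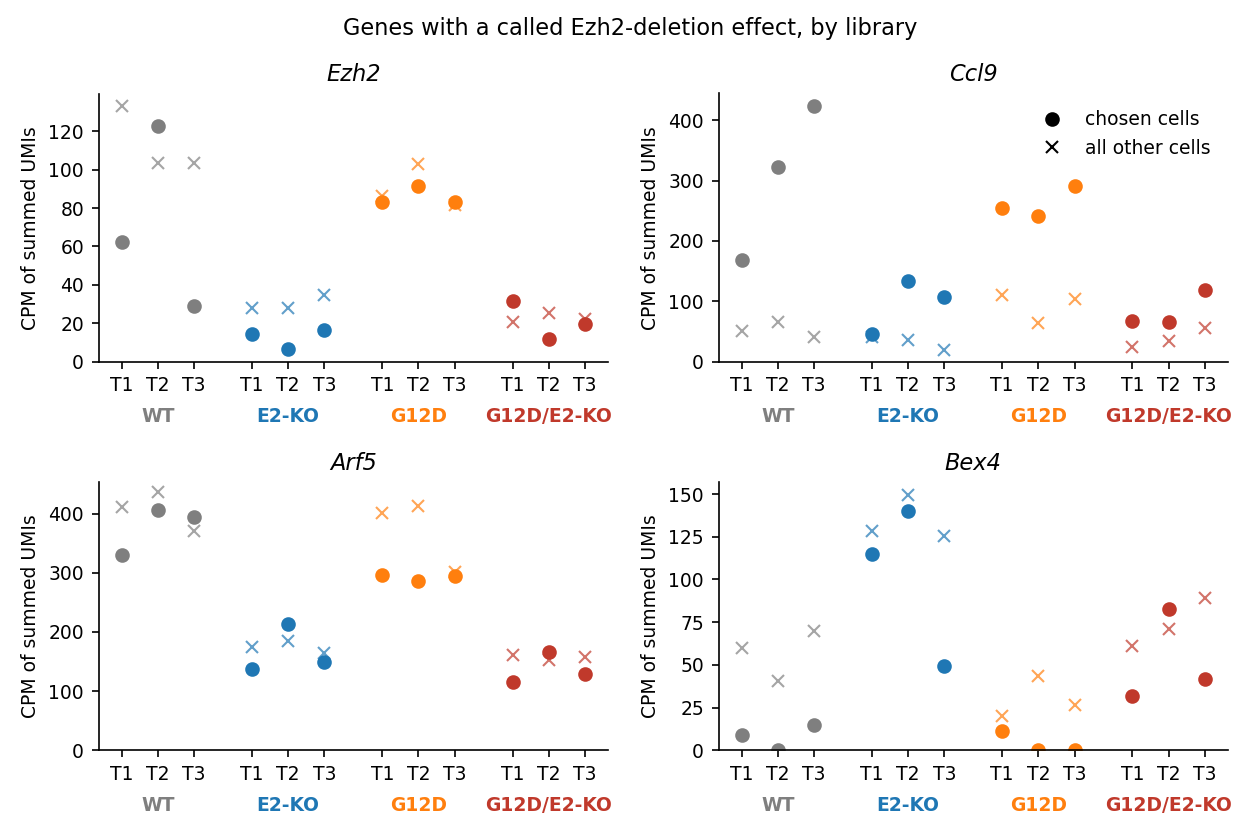
Level in CPM (y axis, from summed UMIs, from 0) of Ezh2, Ccl9, Arf5 and Bex4 in each library (x axis) for chosen cells (dots) and all other cells (crosses). Ccl9 is at 169 CPM or more in chosen cells with Ezh2 intact and at 134 CPM or less in those without.

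Ltf, lactoferrin, a neutrophil granule protein (chromosome 9, 111019271 to 111042767, plus strand), was called at -2.41 on the log2 scale (SE 0.36, adjusted p = 0.00489 by edgeR), from 793, 61.4 and 190 CPM in WT and 249, 45.8 and 121 CPM in G12D to 43.2, 26.7 and 16.5 in E2-KO and 137, 47.3 and 19.8 CPM in G12D/E2-KO. It belongs to the granulocyte list, and 1 of the 11 tested genes of that list was called (DESeq2 called 5). Of these 11 genes 6 had an unadjusted edgeR p under 0.05, beside 209 of all 2427 genes tested. Their median Ezh2 effect was -1.35 against 0.01 over all genes tested. The list summed to 10300 to 88580 CPM in the chosen cells of the 6 libraries with Ezh2 intact and to 7619 to 25300 CPM in those without, and its part in the Ltf value was not tested. In the chosen cells inside the cluster the Ltf change was -1.58 (adjusted p = 0.0554), and without E2-KO T1 it was -1.93 (0.135). The last called gene, Xist, had -5.23 (edgeR adjusted p = 1.2e-06), and without the G12D/E2-KO T3 library it had -0.47 (adjusted p = 0.803).

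For the G12D effect the called genes were Xist (-5.40, edgeR adjusted p = 7.35e-07, and -0.65 with an adjusted p of 0.980 without G12D/E2-KO T3) and Gm8730. Gm8730, annotated as a processed pseudogene (chromosome 8, 102864845 to 102865798, minus strand) that can share reads with its parent gene, had 1104, 1212 and 1359 CPM in WT and 1526, 1489 and 2193 CPM in E2-KO, beside 3782, 1639 and 4034 CPM in G12D and 3070, 1572 and 3913 in G12D/E2-KO. In the chosen cells the change was 0.98 (SE 0.16, edgeR adjusted p = 0.0115), the T2 libraries of all genotypes lay between 1212 and 1639 CPM, and the call was lost without WT T1, WT T3, E2-KO T1, E2-KO T3, G12D T3 or G12D/E2-KO T3 (adjusted p 0.0517 to 0.188). In all other cells Gm8730 had 3418, 1747 and 3359 CPM in G12D and 2433, 1552 and 3814 CPM in G12D/E2-KO. There WT had 1248 to 1617 CPM and E2-KO 1527 to 2172 CPM. Against WT, the double mutant also had Ccl9 (-1.74, adjusted p = 0.00684), Arf5 (-1.45, 0.00450), Ltf (-2.33, 0.0489), Gm8730 (1.14, 0.0447), Xist (-10.6, 8.96e-08) and the noncoding Gm26917 (1.803, 0.0447). E2-KO had Ltf (-3.56, 0.0371) and Ccl9 (-1.67, 0.0384), all by edgeR. The Ezh2 effects of Ccl9 and Arf5 were called under 21 of 21 alternatives, but these calls against WT were not. In the double mutant the call was lost under 13 of 21 alternatives for Gm26917 (adjusted p up to 0.552), 9 of 21 for Gm8730 (up to 0.682), 7 of 20 for Ltf (up to 0.822), 4 of 21 for Xist, 4 of 21 for Ccl9 (up to 0.167) and 2 of 21 for Arf5 (without G12D/E2-KO T1, and with 3 rule genes required). In E2-KO it was lost under 10 of 21 for Ccl9 and 9 of 20 for Ltf, with an adjusted p of 0.738 for both without E2-KO T1. Single libraries ended many of these calls. In the double mutant, Gm26917 was lost without any 1 of 9 libraries, the exceptions being E2-KO T3, G12D T2 and G12D T3. Gm8730 was lost without WT T1, WT T3, E2-KO T3, G12D T3, G12D/E2-KO T1 or G12D/E2-KO T3 (0.0655 to 0.544), and Ltf without WT T1, WT T3, E2-KO T3, G12D T2 or G12D/E2-KO T1 (0.156 to 0.742). Xist lost its call when either G12D/E2-KO T3 or WT T3 was omitted, Ccl9 without WT T2 (0.0537) or WT T3 (0.0865), and Arf5 without G12D/E2-KO T1 (0.0623). In E2-KO, both Ccl9 and Ltf were lost without WT T1, WT T3, E2-KO T1, E2-KO T3, G12D T2 or G12D/E2-KO T1, and Ccl9 also without WT T2 (0.184).

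Hemoglobin genes had negative G12D effects with no edgeR call. Of 5 tested genes of the erythroid list, 0 were called by edgeR for G12D and 4 had an unadjusted p under 0.05, beside 121 of all 2427 genes tested. Their median effect was -1.58 beside 0.01 over all genes. Hbb-bs, a beta globin gene, had -1.78 (SE 0.31, edgeR adjusted p = 0.286), Hba-a2 -1.80 (SE 0.50, 0.987), Hba-a1 -1.58 (SE 0.48, 0.987) and Hbb-bt -1.57 (SE 0.53, 0.987), and DESeq2 called the first 3. The summed list in the chosen cells reached 8917 CPM in E2-KO T1 and 3537 CPM in E2-KO T3, against 561 to 1504 CPM in the other 10 libraries. In the test of chosen minus other cells the G12D difference of Hbb-bs was -0.61 (SE 0.45, edgeR adjusted p = 0.644). The part of erythroid RNA in the genotype results was not tested.

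Few genes of the program that marks these cells were abundant enough to be tested, and, Ccl9 of the basophil list aside (1 of 3 tested genes called for Ezh2), none of them was called in the Ezh2 or the G12D contrast. Cpa3 stood at 579, 499 and 819 CPM in WT and 551, 220 and 635 CPM in E2-KO, beside 692, 722 and 430 CPM in G12D and 522, 437 and 425 in G12D/E2-KO, with an Ezh2 effect of -0.41 (SE 0.23, edgeR adjusted p = 0.625) and a G12D effect of 0.01 (SE 0.23). Gata2 had an Ezh2 effect of 0.03 (SE 0.21) and a G12D effect of -0.02 (SE 0.21). Of the 16 tested transcription factors, 9 granule and histamine genes, 6 cytokine receptors, 4 IgE receptor signalling genes, 3 mast cell genes and 2 lipid mediator enzymes, 0 were called in the Ezh2 or the G12D contrast by edgeR or by DESeq2. Counting each gene once, 37 were tested, of which 5 had an unadjusted edgeR p under 0.05 for Ezh2 and 1 for G12D; at call rates of 0.288% and 0.0824% over all genes, a count of 0 among the 37 is near the background. Their median Ezh2 effects were -0.05, -0.04, 0.17, -0.17, 0.17 and -0.37, and their median G12D effects were 0.08, 0.01, -0.07, 0.01, -0.07 and 0.33, beside 0.01 over all genes in either contrast. Among examples with no call, Lmo4 had a G12D effect of -0.53 (SE 0.20, edgeR adjusted p = 0.987), Slc18a2 an Ezh2 effect of 0.60 (SE 0.31, 0.611) and Hdc one of 0.19 (SE 0.21, 0.819).

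The other pathway lists are small, and at call rates of 0.288% for Ezh2 and 0.0824% for G12D over all genes their counts say nothing particular about them. Of 7 tested Polycomb genes, the deleted gene Ezh2 itself was the only call. Bmi1, a core subunit of Polycomb repressive complex 1, had an Ezh2 effect of 1.49 (SE 0.42, edgeR adjusted p = 0.188). Of 20 tested S phase and mitosis genes 0 were called, with medians of 0.17 for Ezh2 and -0.03 for G12D, and of 3 tested genes of RAS feedback and output 0 were called (DESeq2 called 0 in both lists; 1 gene in each had an unadjusted edgeR p under 0.05, for G12D in the first and for Ezh2 in the second). The interferon list, with 3 genes tested and 0 called by edgeR or DESeq2 (2 with an unadjusted p under 0.05 for G12D), summed to 950 CPM in G12D T3 and 707 CPM in G12D/E2-KO T1 against 188 to 394 CPM in the other 10 libraries. The 4 tested fetal and stem cell genes and the 2 tested eosinophil genes (Prg2, Ezh2 effect 2.61, SE 1.91) had 0 calls by either tool, and 0 with an unadjusted p under 0.05, for Ezh2 and for G12D.

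Finally, the genotype effects in chosen cells were tested against those in all other cells of the same libraries. For Ezh2 deletion 0 of 2427 genes differed by edgeR (0%; 98 had an unadjusted p under 0.05, and DESeq2 also called 0). In this test the difference was -0.57 for Ccl9 (SE 0.32, adjusted p = 0.9998), 0.04 for Arf5 (SE 0.16) and 2.05 for Bex4 (SE 0.59, adjusted p = 0.928). In the other cells Ccl9 was also lower without Ezh2 in every matched pair, at 19.8 to 56.3 CPM against 40.9 to 111 CPM. Arf5 was lower there too (153 to 184 CPM against 302 to 437 CPM). Bex4 was detected in the other cells at 19.9 to 70.1 CPM with Ezh2 intact and at 61.1 to 150 CPM without. A p that misses the threshold does not show that the effects were alike in both populations.

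For NRas G12D 6 genes differed between the populations (0.247%; 298 unadjusted). Gm2a, the activator protein of ganglioside breakdown in lysosomes (chromosome 11, 55098115 to 55113029, plus strand), had a difference of -1.66 (SE 0.33, edgeR adjusted p = 0.0154). Its chosen-cell level was 214, 177 and 307 CPM in WT but 39.6, 33.4 and 82.5 in E2-KO, 47.0, 103 and 58.9 CPM in G12D and 65.8, 47.3 and 7.42 CPM in G12D/E2-KO, so all mutant libraries lay below WT. Rnase12, a leading gene of the cluster (chromosome 14, 51056698 to 51057661, minus strand), had 1.88 (SE 0.38, edgeR adjusted p = 0.0179). In the other cells it was at 10.97 to 20.5 in E2-KO and 1.09 to 6.04 CPM in the other 9 libraries, and in chosen cells at 66.7 to 322 CPM with no such split. The actin regulator Coro1a differed by -0.74 (SE 0.14, adjusted p = 0.0125), S100a11 by -0.64 (SE 0.14, 0.0287), the glycolytic enzyme gene Pkm by -0.68 (SE 0.16, 0.0467) and the growth factor gene Hdgf by 0.68 (SE 0.15, 0.0296), all by edgeR. Without the block, 0 of the 6 were called, and over all alternatives the call was lost under 10 of 18 for Pkm, 9 of 18 for S100a11, 8 of 18 for Hdgf, 6 of 17 for Rnase12, 2 of 18 for Coro1a and 2 of 17 for Gm2a. Pkm, Hdgf and S100a11 were each lost when WT T1, E2-KO T2, E2-KO T3, G12D T3 or G12D/E2-KO T1 was omitted. G12D T1 also ended the calls of Pkm, Hdgf, Rnase12 and Gm2a (0.114 for the last), G12D/E2-KO T2 those of Pkm, S100a11 and Rnase12, and E2-KO T1 that of S100a11, and Rnase12 was lost too when WT T1, E2-KO T3 or G12D/E2-KO T1 was omitted. No single library ended the call of Coro1a. In the other cells Coro1a ran from 261 to 390 CPM without G12D and from 321 to 513 CPM with it, and in the chosen cells from 307 to 435 and from 218 to 368 CPM. The make-up of the other cells also moves with genotype, and its part in these differences was not tested.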

How the data were processed

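All 12 10x libraries, 1 per genotype and time point, were analysed from raw UMI counts per cell and gene (27998 genes) that the authors deposited. Per the study's methods and the submitters' processing notes, reads were aligned to mm10 with Cell Ranger, each sample alone, cells with over 10% mitochondrial UMIs and Scrublet doublets were removed, and no further caller was run here. The deposited counts were used unscaled. Cell barcodes are not used here, so cells held by more than 1 table were found by the cosine of the square roots of their counts (8000 genes ranked after the top 300, above 0.9). The chosen cells, the gene lists and the tests were fixed with earlier results of these data known.

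UMIs of chosen cells were summed per library. edgeR 4.0.16 (R 4.3.3; filterByExpr, TMM factors 0.899 to 1.08, robust quasi-likelihood fit, genotype and time point as factors, 6 residual degrees of freedom, rule genes not tested) gave log2 changes and Benjamini-Hochberg adjusted p, with calls under 0.05. Its Ezh2 and G12D effects average the contrast over the other genotype. A second fit with library as block compared chosen with all other cells. Shares were compared on log2 values by exact sign-flip permutation over matched pairs, with 0.5 cells added, two-sided. Clusters (scanpy 1.11.5; 2000 variable genes, 50 components, 15 neighbours, Leiden resolution 3) left out the rule genes. Gene positions are from GENCODE M21. Intervals are exact Clopper-Pearson at 95% and cover counting error only.

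Genes were named by a rule: targeted genes, the 5 markers, up to 8 called genes per direction and contrast, list genes that were called or highest, and the 20 highest ratios to other cells. List genes named beside these were picked after their values were seen. DESeq2 1.42.0, other scalings and filters, other choices of cells, no block and each library left out were run as alternatives. Scripts were tested on simulated data. No sample was left out.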

Additional observations from a re-analysis of the deposited data

Results flagged for a closer look

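By edgeR, 2 genes passed the test of an interaction of both alleles and 6 the test of a difference between cell populations, and their causes were not tested. In the chosen cells the interaction of Ezh2 deletion and NRas G12D was -10.96 on the log2 scale for Xist (adjusted p = 5.34e-07), the RNA that was present in 3 T3 libraries and at 0 in G12D/E2-KO T3. Without that library it was -1.55 (adjusted p = 0.9999). Tpm3-rs7, a gene that can share reads with its close relative Tpm3, had an interaction of -5.56 (adjusted p = 0.0130). Its call was lost under 5 of 20 alternatives, among them the chosen cells inside the cluster (-5.92, adjusted p = 0.436). Tpm3 had an interaction of the other sign, 1.53 (SE 0.40, edgeR adjusted p = 0.943), and the part of shared reads was not tested. Tpm3-rs7 was at 17.8, 7.67 and 14.6 CPM in WT at T1, T2 and T3, 46.8, 140 and 16.5 in E2-KO, 77.5, 206 and 93.6 CPM in G12D and 14.6, 0 and 12.4 CPM in G12D/E2-KO. The same 5 libraries were high in the other cells (72.0 to 172 CPM, against 9.11 to 14.4 CPM in the rest).

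The G12D effect in chosen cells differed from that in all other cells for 6 genes. The differences, chosen minus other cells, were 1.88 on the log2 scale for Rnase12 (adjusted p = 0.0179) and 0.68 for Hdgf (adjusted p = 0.0296), where the G12D effect in the chosen cells alone was 0.10 (SE 0.38) and 0.22 (SE 0.19). They were -1.66 for Gm2a (adjusted p = 0.0154), -0.74 for Coro1a (adjusted p = 0.0125), -0.68 for Pkm (adjusted p = 0.0467) and -0.64 for S100a11 (adjusted p = 0.0287) by edgeR, where the effect in the chosen cells alone was -1.07 (SE 0.48), -0.27 (SE 0.16), -0.10 (SE 0.17) and -0.03 (SE 0.20). Hdgf was at 396 to 532 CPM in the other cells without G12D and 266 to 518 CPM with it, and at 169 to 322 and 183 to 401 CPM in the chosen cells.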

How the results depend on the processing

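Few cells set the limits: WT libraries held 13 to 17 chosen cells, and genes of low level did not enter the tests. Of 532 recomputed values of named genes, 396 kept their direction and side of the threshold and 0 changed sign; the Ccl9 and Arf5 Ezh2 effects kept theirs under all 21 alternatives each. The cause of the changes below was not tested. Sets of cells inside or outside the cluster, and without cells of 10 or more Prg2 UMIs, were chosen after seeing the data. Leaving out libraries under 20 chosen cells was not run, since no WT library remains.

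Counts of called genes moved as follows. DESeq2 called 13 genes for Ezh2, 4 for G12D, 1 for the interaction, 10 for E2-KO and 1 for G12D against WT, and 14 for the G12D difference between populations. No filter gave 39 for Ezh2, 9 for G12D, 21 for E2-KO, 9 for G12D against WT and 17 for G12D/E2-KO, and 2 and 18 for the Ezh2 and G12D differences. DESeq2 size factors gave 1 for G12D against WT. Requiring 3 genes left 1 call each for the interaction, E2-KO and G12D/E2-KO, and the tables as deposited 1 each for the interaction and E2-KO, and 11 for the G12D difference. All cluster cells gave 33 for Ezh2, 8 for E2-KO, 3 for G12D against WT and 13 for G12D/E2-KO, and chosen cells inside the cluster 14 for Ezh2, 1 for the interaction and 3 for the G12D difference. Without the Prg2 cells 1 gene was called in E2-KO.

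Leaving out 1 library gave 5 to 15 calls for Ezh2 (12 without E2-KO T2, 15 without E2-KO T3, 12 without G12D/E2-KO T1), 0 to 6 for G12D (0 without WT T3 or G12D T3, 1 without WT T1 or E2-KO T1, 6 without E2-KO T2, 4 without G12D/E2-KO T3) and 0 to 5 for the interaction (0 without G12D T3, 1 without WT T2, WT T3 or E2-KO T3, 5 without E2-KO T2, 4 without G12D/E2-KO T3). It gave 0 to 9 for E2-KO (0 without WT T1, E2-KO T1, G12D T2 or G12D/E2-KO T1, 1 without WT T2 or E2-KO T3, 6 without E2-KO T2, 9 without G12D T3, 7 without G12D/E2-KO T2, 8 without G12D/E2-KO T3), 0 to 2 for G12D against WT, and 2 to 7 for G12D/E2-KO (3 without WT T1, 2 without WT T3, 3 without G12D/E2-KO T1). The Ezh2 difference gave 0 to 1 (1 without G12D T2) and the G12D difference 2 to 32 (2 without WT T1, E2-KO T3 or G12D T1, 3 without G12D T3 or G12D/E2-KO T2, 19 without WT T2, 32 without WT T3, 13 without G12D/E2-KO T3).

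The Ezh2 effect on the share was 0.69 with 3 genes, 0.60 for cluster cells and 0.37 for chosen cells outside the cluster, all without p under the threshold, and 0.53 to 0.75 with 1 library left out (permutation p = 0.0625, the smallest that 5 pairs allow). Its interaction was 0.64 for cluster cells and -0.76 to 0.11 with 1 library left out, turning positive without any T1 library. The G12D effect on the summed rule genes ran from 0.61 to 1.08 and their interaction from -1.20 to 0.0934 (positive without any T3 library), and the G12D effect on Cpa3 from 0.55 to 0.98.

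Time points gave the replicate block. Libraries of the same time point deviated together only weakly (correlations -0.158 to 0.277, median 0.0931 over 18 pairs, against a median of -0.0305 over 36 other pairs), so the time points were not taken to pair animals; 3 of the 4 T3 libraries also share Xist. Without the block, 7 genes were called for Ezh2, 0 for G12D, 1 for the interaction, 0 in E2-KO, 2 in G12D/E2-KO and 0 for the G12D difference; the share effect of 0.65 had an exact permutation p of 0.1645, and the G12D effect of 0.91 on the summed rule genes one of 0.0801.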

Other observations

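When all 402 cells of the cluster were summed, chosen or not, edgeR called 33 of 2558 genes for Ezh2 deletion (1.29%; 18 higher, 15 lower), 6 of them also called in the chosen cells. The genes given here were picked after their values were seen. Higher with Ezh2 deleted were Bmi1, of Polycomb repressive complex 1 (1.87 on the log2 scale), the metallothionein gene Mt1 (1.66), the sialyltransferase gene St8sia6 (1.62), Pttg1, the securin of mitosis (1.23), the chemokine receptor gene Cxcr4 (0.92) and the nucleosome-binding Hmgn1 (0.72). Lower were Ccl9 (-1.92) and the neutrophil granule genes Lcn2 (-1.32) and Elane (-0.78), the last 2 of lists of another lineage. For NRas G12D 3 genes were called (0.117%), with the Fc receptor gene Fcgr3 higher (1.14) and the tubulin gene Tuba4a lower (-1.05).

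DESeq2 called granulocyte and erythroid genes in the chosen cells that edgeR did not. For Ezh2 it called 5 of 11 tested granulocyte genes (Lcn2, Ltf, Ngp, S100a8 and S100a9, of which edgeR called Ltf), among 13 calls over all genes. For G12D it called the globin genes Hba-a1, Hba-a2 and Hbb-bs, of 5 tested erythroid genes, among 4 calls over all genes. The edgeR effects of these globin genes were below 0.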
